A study of Mus musculus with 12 samples.

Results

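Cajal-Retzius cells are early-born neurons of the marginal zone. In the dentate gyrus they line the outer molecular layer and the hippocampal fissure, close to the pial surface. They are the main source of Reelin, the secreted protein encoded by Reln that guides migrating neurons, and they express Trp73, a p53 family member, together with the LIM-homeodomain factors Lhx1 and Lhx5. They use glutamate as a transmitter, come mostly from the cortical hem, septum and ventral pallium, and many of them die after birth. The transcripts described here are those of cells in the postnatal day 7 (P7) dentate gyrus that were chosen by these markers.

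Single-cell transcriptomes of the microdissected P7 dentate gyrus were collected from 3 genotypes, with 1 library per genotype and 3-4 dentate gyri of littermates combined in each. The wild-type library (WT) came from mice described as wild-type, and the study states elsewhere that Larp7-floxed mice served as its wild-type control. The nestin-Cre library came from Larp7f/f;nestin-Cre mice, in which Cre is driven in neural stem and progenitor cells, and the Emx1-Cre library came from Larp7f/f;Emx1-Cre mice, in which Cre is driven in dorsal forebrain progenitors. LARP7 binds and stabilizes the 7SK small nuclear RNA, which holds the transcription elongation factor P-TEFb in an inactive complex. The sample titles name the Cre driver of each mutant library and were followed here, since the genotype entries of both mutants name the other driver. No Cajal-Retzius cell was sorted or traced, so whether a given cell carried the deletion is not known.

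A cell was a member when it held over 500 genes and under 15% mitochondrial counts, at least 1 count of Trp73 or Lhx5, counts of at least 3 of the 6 markers Reln, Trp73, Lhx1, Lhx5, Ebf3 and Cacna2d2, and no count of Gad1 or Gad2. A count is a unique molecular identifier (UMI), 1 for each captured transcript molecule. The members numbered 92 of 24213 cells that passed the filter, or 0.380% (95% exact binomial interval 0.306-0.466%). There were 3 members of 10997 cells in WT (0.0273%, 0.00563-0.0797%), 67 of 6685 in nestin-Cre (1.00%, 0.778-1.27%) and 22 of 6531 in Emx1-Cre (0.337%, 0.211-0.510%). The nestin-Cre share was above the interval of the Emx1-Cre share, and both were above the WT share. These intervals cover counting error only, and with 1 library per genotype the genotype cannot be told apart from the library, its dissection and its dissociation.

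The libraries also differed in depth. They held 26689878 to 28918491 UMIs in 6821 to 12876 barcodes, and the median cell that passed the filter held 1782 UMIs in WT, 3644 in nestin-Cre and 3873 in Emx1-Cre. A rule that asks for several markers finds fewer cells at lower depth. When each cell of at least 1500 UMIs was thinned to 1500, the members numbered 1 of 6212 cells in WT, 32 of 6088 in nestin-Cre and 7 of 6092 in Emx1-Cre. The same cells before thinning held 2, 64 and 22 members. The shares at equal depth were 0.0161% (0.000408-0.0897%), 0.526% (0.360-0.741%) and 0.115% (0.0462-0.237%), so the interval of nestin-Cre lay above the other two, and those of WT and Emx1-Cre overlapped. The plot of member shares and depths shows the cells without thinning. Barcodes shared between libraries numbered 11 to 23 per pair, and 1 member carried one.

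**Figure D1:**
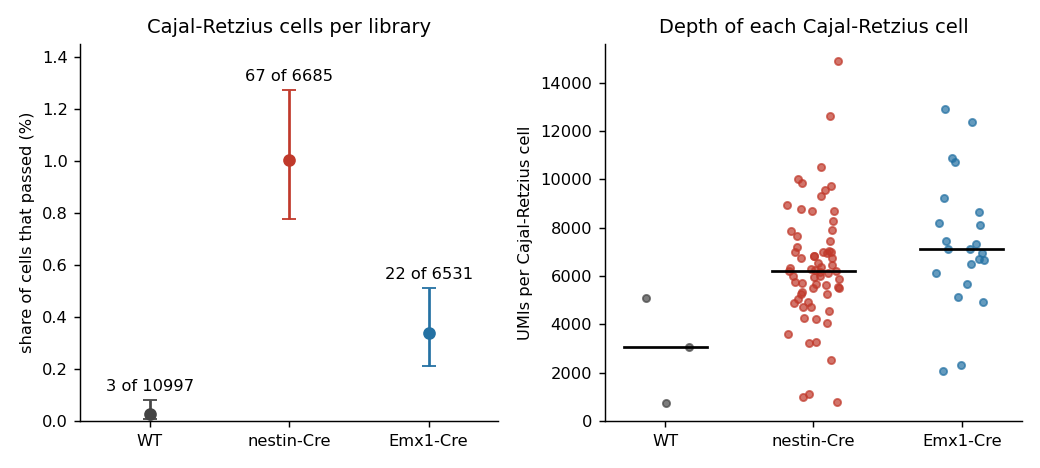
The left panel plots the share of passed cells that were Cajal-Retzius cells in each library (percent, bars with the 95% exact binomial interval and the cell numbers), and the right panel plots the UMIs of each Cajal-Retzius cell with a black line at the median. The share was highest in nestin-Cre (67 of 6685 cells) and lowest in WT (3 of 10997 cells), and the 3 WT cells held 736 to 5099 UMIs.

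Members were deeper than most cells of their library. They held a median of 3044 UMIs in WT (736 to 5099), 6218 in nestin-Cre (797 to 14887) and 7117.5 in Emx1-Cre (2074 to 12907). Summed, the members held 8879 UMIs in WT, 428420 in nestin-Cre and 163046 in Emx1-Cre. A single UMI is therefore worth 113 CPM (counts-per-million) in the WT members, 2.33 CPM in nestin-Cre and 6.13 CPM in Emx1-Cre. A gene at 0 in WT may lie up to 338 CPM by the floor of 3 UMIs used here, or up to 415 CPM by the exact Poisson interval, and every WT value of a single gene rests on few molecules. The median mitochondrial share of the members was 2.88% in WT, 2.85% in nestin-Cre and 2.64% in Emx1-Cre, close to that of the other cells.

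Of the 3 WT members, 1 held 5099 UMIs with counts of all 6 markers and of 8 of the 13 identity genes that the rule did not use. The second held 3044 UMIs, 3 markers and 3 of these 13 genes, together with 5 UMIs of Pdgfra, 3 of Cspg4, 4 of Olig1 and 15 of Fabp7, genes of oligodendrocyte precursors and radial glia. The third held 736 UMIs, 3 markers and 2 of the 13 genes. In the mutants at least 4 markers were found in 64 of 67 nestin-Cre and 21 of 22 Emx1-Cre members, against 1 of 3 in WT. The WT members are thus described below but carry little weight, and each gene is also given for the mutant libraries.

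The 6 markers of the rule were concentrated in the 92 cells, which held 70.9% of all Reln UMIs of the 3 libraries, 82.0% of those of Trp73, 75.7% of Lhx1, 87.1% of Lhx5, 74.3% of Ebf3 and 54.7% of Cacna2d2. Since these genes chose the cells, their values are given as a description. Reln stood at 3154 CPM in WT, 4507 CPM in nestin-Cre and 3398 CPM in Emx1-Cre, and was the highest of the 6 in every library. Cacna2d2, an auxiliary calcium channel subunit, followed at 1126, 796 and 834 CPM. Lhx1 was found at 225, 474 and 448 CPM, Trp73 at 338, 236 and 202 CPM, Ebf3 at 338, 224 and 190 CPM and Lhx5 at 113, 168 and 49.1 CPM. These are counts of 3′ ends, into which the length of a transcript does not enter.

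The threshold of the rule fell within a sparse range of cells. The 6 members with exactly 3 markers held Ndnf, an identity gene not used by the rule, at 2175 CPM. The 10 cells with Trp73 or Lhx5 and 1 marker too few held it at 282 CPM. A further 25 cells had at least 3 markers but neither Trp73 nor Lhx5, and held Ndnf at 2274 CPM and Nhlh2 at 607 CPM, which are levels of the same order as in the members. Of these 25 cells, 5 were from WT, 15 from nestin-Cre and 5 from Emx1-Cre. No cell was left out for a count of Gad1 or Gad2 alone.

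The label was checked with 13 genes reported for Cajal-Retzius cells that the rule did not use. A member held a median of 3 of the 13 in WT, 9 in nestin-Cre and 9 in Emx1-Cre, and at least 5 were found in 1 of 3, 65 of 67 and 21 of 22 members. Ndnf, a secreted neurotrophic factor, was found in 91 of 92 members (98.9%), against 0.597% of granule neurons and 0.645% of microglia, a cell type that should lack it. Members were deeper (a median of 6349 UMIs against 3582 in granule neurons and 2768 in microglia), and in cells thinned to 1500 UMIs the shares for Ndnf were 96.6%, 0.279% and 0.247%. For the mutant libraries the identity of the members therefore rested on genes outside the rule, and for WT on 1 cell.

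Members were compared with 3 other groups of cells. The first was granule neurons, the principal neurons of the dentate gyrus, chosen by Prox1 with at least 2 of Neurod1, Dcx, Igfbpl1 and Bhlhe22 (6697 cells). The second was 96 cells with at least 2 of Dlx1, Dlx2, Dlx5, Dlx6os1, Lhx6 and Slc32a1, genes of the GABAergic interneuron lineage. These Dlx-gated cells held Mki67 at 458 CPM, Top2a at 737 CPM and Gad2 at 205 CPM, so they included dividing precursors and were not mature interneurons. The third group was all other cells. Counts were summed per library and group and compared within libraries by edgeR's quasi-likelihood test, with p-values adjusted over all genes tested, a threshold of 0.05, and log2 fold changes given with their standard error (n = 3 libraries). The genotype was part of every such comparison only as a block, so the folds describe Cajal-Retzius cells across WT and mutants together.

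Of 11988 genes tested against granule neurons, 1196 (9.98%) were higher and 1609 (13.4%) lower in Cajal-Retzius cells. Of 11993 tested against Dlx-gated cells, 1423 (11.9%) were higher and 1170 (9.76%) lower. Of 14565 tested against all other cells, 1259 (8.64%) were higher and 1507 (10.3%) lower. The median log2 fold over all genes was -0.21, 0.03 and -0.29. Of the calls against granule neurons 42.6% were higher, and this share was 52.8% when sums were scaled by library size only and 51.6% by DESeq2. Scaling by library size only moved the median log2 fold by 0.13, and no call turned its direction under these scalings. The counts rested mainly on the nestin-Cre members: 387 genes were higher and 287 lower against granule neurons without that library, 569 and 491 without Emx1-Cre, and 1362 and 1209 without WT. Without WT, 2074 of the 2106 calls that could still be tested against granule neurons held. By DESeq2 1326 of 2805 held, and with cells thinned to 1500 UMIs 670 of 2587.

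Against granule neurons 8 of the 11 tested identity genes outside the rule were higher and 1 was lower. Against Dlx-gated cells 11 of 11 were higher, and against all other cells 9 of 12 were higher and none was lower. DESeq2 called 8 higher and 1 lower against granule neurons, 9 higher against Dlx-gated cells and 8 higher against all other cells. The genes of this list were chosen for being known in these cells, and their median log2 fold against granule neurons was 2.53.

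Ndnf stood at 2590 CPM in WT, 2883 CPM in nestin-Cre and 2226 CPM in Emx1-Cre members, and at 1.23, 2.81 and 1.99 CPM in the granule neurons of the same libraries. The summed members were thus higher in each library, although 40 of 6697 granule neurons held an Ndnf UMI and 1 member held none, and the log2 fold was 9.93 ± 0.31 (adjusted p = 3.52e-212). Nhlh2, a basic helix-loop-helix factor of postmitotic neurons, was found at 788, 754 and 552 CPM in members and at 97.7, 99.4 and 105 CPM in granule neurons (log2 fold 2.53 ± 0.20, adjusted p = 7.23e-36). Nr2f2, an orphan nuclear receptor, was found at 113, 684 and 448 CPM against 28.9, 41.5 and 32.6 CPM (3.72 ± 0.20). Both were thus higher in members in each library, although the WT value of Nr2f2 was a single UMI. Car10, a carbonic anhydrase-related protein, was at 0, 240 and 98.1 CPM in members and at no more than 6.32 CPM in granule neurons (4.96 ± 0.37). Thsd7b, Tmem163 and Zic1 were also higher, with log2 folds of 5.28 ± 0.34, 3.45 ± 0.24 and 1.60 ± 0.22.

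**Figure D2:**
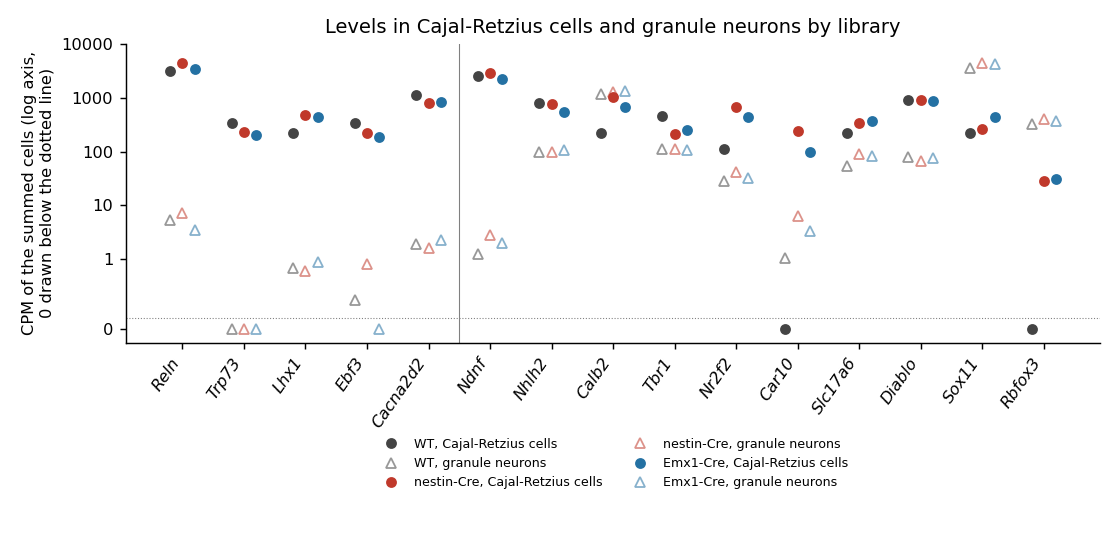
Levels of 5 of the 6 rule markers (left of the vertical line) and of genes outside the rule (right) in CPM on a log axis, by library, with filled circles for Cajal-Retzius cells, open triangles for granule neurons of the same library, and values of 0 drawn under the dotted line. Ndnf lay between 2226 and 2883 CPM in Cajal-Retzius cells and under 3 CPM in granule neurons, whereas Calb2 was higher in granule neurons.

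Calb2, which encodes the calcium-binding protein calretinin, did not set members apart. It stood at 225, 1043 and 662 CPM in the members and at 1175, 1297 and 1355 CPM in granule neurons, which express calretinin while immature. Members were lower in each library (log2 fold -0.93 ± 0.23, adjusted p = 0.000423), and against all other cells the log2 fold was 0.02 ± 0.48 (adjusted p = 0.986). The members held 1.17% of all Calb2 UMIs. Tbr1, a T-box factor of glutamatergic neurons, was found at 451, 212 and 251 CPM in members and 112, 113 and 106 CPM in granule neurons (0.95 ± 0.21), and the members held 2.62% of its UMIs. Cxcr4, the receptor by which these cells respond to meningeal Cxcl12, was at 0, 126 and 61.3 CPM against 60.3, 60.8 and 73.7 CPM, and did not pass the test (0.52 ± 0.26, adjusted p = 0.138). Ebf1 and Ebf2 were near the limit of detection, with 7 and 2 UMIs in all members.

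Reln, Ndnf, Nhlh2, Calb2 and Tbr1 were followed cell by cell, per 10000 UMIs. Reln ranged from 23.0 to 81.5 (median 29.4) in the 3 WT members, from 10.2 to 77.5 (median 42.1) in nestin-Cre and from 12.2 to 50.4 (median 36.8) in Emx1-Cre. Ndnf ranged from 6.57 to 37.3 (median 27.2), from 3.94 to 53.6 (median 30.1) and from 0 to 44.6 (median 20.1). The ranges of the 3 libraries overlapped for both genes. Calb2 was more uneven, from 0 to 33.5 in nestin-Cre members (median 9.48, with 9 cells at 0) and from 0 to 18.8 in Emx1-Cre members (median 4.74, with 4 cells at 0). Tbr1 was at 0 in 15 nestin-Cre and 4 Emx1-Cre members. A 0 in a single cell of this depth does not show that the gene was off.

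**Figure D3:**
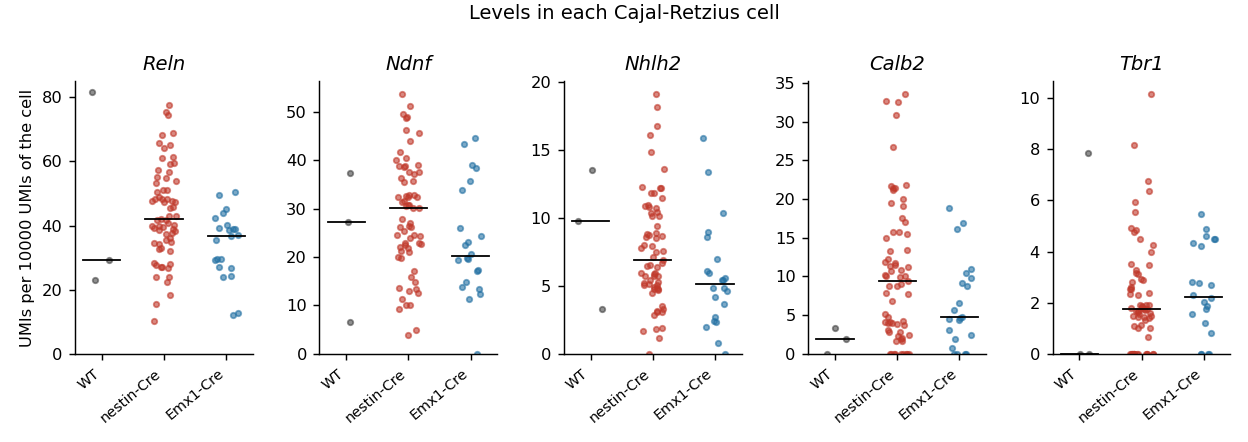
Counts per 10000 UMIs in each Cajal-Retzius cell (points) for Reln, Ndnf, Nhlh2, Calb2 and Tbr1 by library, with a black line at the median. Reln was above 10 in every cell, since it chose the cells in part, while Calb2 spread from 0 to 33.5 in nestin-Cre.

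The 15 genes with the largest log2 folds against all other cells, among those with at least 50 CPM in members, held secreted peptides, noncoding RNAs and regulators. The neuropeptide precursors were Pnoc (prepronociceptin; 676, 579 and 497 CPM in WT, nestin-Cre and Emx1-Cre, log2 fold 8.29 ± 0.36) and Penk (proenkephalin; 0, 320 and 141 CPM, 8.07 ± 0.31). Pnoc was found in 76 of 92 members and Penk in 43 of 92, and Penk counts were thus carried by fewer of the cells. Gdf5, a secreted BMP family ligand, stood at 338, 198 and 159 CPM (8.32 ± 0.35), and members held 74.5% of its UMIs. Ecel1, a membrane peptidase of the neprilysin family, stood at 0, 117 and 141 CPM (7.18 ± 0.34). Cd274, which encodes the immune checkpoint ligand PD-L1, stood at 0, 152 and 270 CPM (7.73 ± 0.33).

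The most abundant of the 15 were the long noncoding RNAs Meg3, an imprinted transcript, and Snhg11, a small nucleolar RNA host gene. Meg3 was found at 11938, 10478 and 8875 CPM in members and at 28.2, 27.8 and 19.1 CPM in granule neurons. Snhg11 was found at 7771, 4727 and 4122 CPM against 10.7, 15.8 and 13.7 CPM. Members were far above granule neurons in each library, with log2 folds of 8.30 ± 0.32 and 8.19 ± 0.28, and against all other cells of 7.13 ± 0.80 and 7.80 ± 0.73. The 92 cells held 57.4% of all Meg3 and 65.2% of all Snhg11 UMIs. Barhl2, a homeodomain factor among the identity genes, stood at 113, 100 and 79.7 CPM (8.38 ± 0.42), and Ndnf was also among the 15. Lhx1os, transcribed divergently from Lhx1, stood at 113, 378 and 233 CPM (7.78 ± 0.31). The others were the melanocortin receptor accessory gene Mrap2, the dynein intermediate chain gene Dync1i1, the heparan sulfate sulfotransferase gene Hs3st5, Samd3 and Ankrd35, with log2 folds between 6.65 and 8.07.

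The promoter regions of these genes were read from RefSeq (GRCm38.p6, from 250 bases before to 50 bases after the annotated start), where 11 of the 15 genes and 5 of the 6 markers had an entry. Lhx1 and Lhx1os lie head to head on chromosome 11 with their starts 126 bases apart, so the rule marker Lhx1 and its neighbour, one of the 15 genes, share a promoter region. The Lhx1 region is shown for this reason, at chr11:84525485-84525784 on the minus strand, with the 225 bases in capitals that the Lhx1os region (plus strand) also contains.
Lhx1: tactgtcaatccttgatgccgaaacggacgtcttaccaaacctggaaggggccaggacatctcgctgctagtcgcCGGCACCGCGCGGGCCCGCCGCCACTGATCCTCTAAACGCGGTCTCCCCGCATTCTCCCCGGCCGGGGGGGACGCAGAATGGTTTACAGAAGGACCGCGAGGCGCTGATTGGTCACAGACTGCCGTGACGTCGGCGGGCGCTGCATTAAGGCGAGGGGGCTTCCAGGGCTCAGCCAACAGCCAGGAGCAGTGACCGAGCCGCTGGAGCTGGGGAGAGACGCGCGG

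The motifs searched on both strands of these regions were the palindromic EBF motif TCCCNNGGGA, the homeodomain core TAATTA and the E-box CAGCTG. The EBF motif was in none of the 11 named and none of the 5 marker regions, and in 0.914% of all 27025 promoter regions. TAATTA was likewise in none of these regions, and in 5.31% of all promoter regions. CAGCTG was in 2 of the 11 named regions and none of the 5 marker regions, and in 16.1% of all promoter regions. The 2 regions were those of Hs3st5 and Snhg11, and the Snhg11 region (chr2:158375463-158375762, plus strand) is shown as that of the more abundant RNA, with the E-box in capitals.
Snhg11: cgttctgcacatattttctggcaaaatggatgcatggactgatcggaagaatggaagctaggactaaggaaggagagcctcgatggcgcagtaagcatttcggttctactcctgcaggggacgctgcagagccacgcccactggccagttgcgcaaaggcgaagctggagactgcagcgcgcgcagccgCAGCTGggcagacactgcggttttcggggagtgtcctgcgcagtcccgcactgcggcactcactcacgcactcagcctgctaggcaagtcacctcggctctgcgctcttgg

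Against granule neurons the largest log2 folds were those of Ndnf, Meg3, Snhg11, Dync1i1 (338, 504 and 270 CPM in members, 7.33 ± 0.28) and the unnamed gene Gm28050 (0, 208 and 166 CPM, 7.01 ± 0.41). At the other end Gal, which encodes the neuropeptide galanin, had no UMI in any member and stood at 18.4, 90.1 and 59.8 CPM in granule neurons, at least 12.5-fold lower in members by a floor of 3 UMIs over the class. The somatostatin receptor gene Sstr2 and the transcriptional repressor gene Zfp703 had 2 UMIs each in the members, with ratios to granule neurons of 0.0241 (95% counting interval 0.00292-0.0871) and 0.0287 (0.00348-0.104). The small GTPase gene Rerg and the potassium channel gene Kcna1 had 1 UMI each, with ratios of 0.0295 (0.000745-0.164) and 0.0333 (0.000842-0.186). The 5 genes lowest against granule neurons were thus hardly detected in Cajal-Retzius cells.

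Against Dlx-gated cells the 5 highest genes had no UMI in those cells. Cxcl12, the chemokine ligand of Cxcr4, stood at 1464, 1648 and 1153 CPM in members, at least 238-fold higher by the same floor. It was found in 89 of 92 members (96.7%), against 3.46% of granule neurons and 1.61% of microglia (85.2%, 1.62% and 0.659% thinned to 1500 UMIs), and members held 38.0% of its UMIs. Npnt, an extracellular matrix protein, was at least 57.0-fold higher, Ass1, an arginine synthesis enzyme, at least 36.0-fold, Thsd7b at least 31.3-fold and Ptprn, a dense-core vesicle protein, at least 30.5-fold. The 5 lowest genes had no UMI in members. St18, Ube2ql1 and D8Ertd82e were at least 17.8-fold lower, Lmo3 at least 14.0-fold and Mob3b at least 13.1-fold. St18 and Lmo3, which encode transcriptional regulators, are known in the interneuron lineage.

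Of 12 tested genes of Reelin reception and signalling none was higher and 3 were lower than in granule neurons by edgeR, as by DESeq2. At an unadjusted p under 0.05, where 13.7% of all genes were higher and 20.2% lower, none of the 12 was higher and 6 were lower. Lrp8, a Reelin receptor, stood at 0, 70.0 and 104 CPM in members and at 190, 210 and 189 CPM in granule neurons (log2 fold -1.45 ± 0.27). Dab1, the adaptor that Reelin receptors phosphorylate, stood at 0, 21.0 and 30.7 CPM against 53.2, 130 and 76.5 CPM (-2.35 ± 0.37). The kinase gene Fyn, which acts on Dab1, was also lower (-1.44 ± 0.25), whereas Vldlr, the other receptor, did not pass the test (-1.03 ± 0.43, adjusted p = 0.0658). The same 3 genes were lower against all other cells. Against Dlx-gated cells 1 of the 12 was higher, Pafah1b1 (0.80 ± 0.25), which encodes LIS1, and none was lower.

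Among 12 tested genes of migration and pial retention 2 were higher and 4 lower than in granule neurons (2 and 3 by DESeq2). Of all genes 9.98% were higher and 13.4% lower by edgeR. The semaphorin receptor gene Plxnd1 stood at 113, 114 and 79.7 CPM in members and at most at 10.0 CPM in granule neurons (3.36 ± 0.37). The ephrin receptor gene Epha3 stood at 113, 98.0 and 85.9 CPM against 18.2, 15.8 and 17.7 CPM (2.39 ± 0.31). The genes that were lower were also ephrin receptors. Epha4 was found at 0, 110 and 104 CPM against 712, 911 and 969 CPM (-3.25 ± 0.28), Ephb2 had a log2 fold of -2.46 ± 0.37, and Ephb1 and Ephb3 had 3 UMIs each in members, with ratios of 0.0452 (0.00931-0.132) and 0.311 (0.0639-0.916).

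Among the genes of vesicular transmitter transporters Slc17a6 stood apart. Slc17a6, which encodes the vesicular glutamate transporter VGLUT2, stood at 225, 341 and 374 CPM in members and at 54.9, 88.9 and 82.3 CPM in granule neurons (1.92 ± 0.20, adjusted p = 1.2e-19). It was found in 75 of 92 members (81.5%), against 22.7% of granule neurons and 3.61% of microglia, and thinned to 1500 UMIs these shares were 48.9%, 10.8% and 1.48%. The other vesicular glutamate transporter gene Slc17a7 had 1 UMI in all members, and the vesicular GABA transporter gene Slc32a1 had none. Of the 4 tested genes of this list Slc17a6 was higher, and the chloride importer gene Slc12a2 was lower (18.7 and 18.4 CPM in the mutant members, -1.30 ± 0.44), while DESeq2 called 0 of the 4. Slc12a5, the chloride exporter gene of mature neurons, had 1 UMI in the members.

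Of 18 tested receptor subunit genes 6 were higher and 4 lower than in granule neurons, where 9.98% of all genes were higher and 13.4% lower. DESeq2 called 3 of the 18 higher and 2 lower. The AMPA receptor subunit gene Gria4 stood at 113, 107 and 73.6 CPM in members against 6.49, 16.8 and 14.9 CPM (2.45 ± 0.33), and Gria1 was also higher (0.81 ± 0.23), while Gria2 was lower (-1.25 ± 0.23). Of the NMDA receptor genes Grin1, the obligatory subunit, was higher (1.46 ± 0.35) and Grin2b was lower, at 21.0 and 12.3 CPM in the mutant members against 142 and 97.9 CPM (-2.90 ± 0.39). The GABA-A receptor gene Gabra2 (0.71 ± 0.23) and Glrb, the glycine receptor beta subunit gene (2.68 ± 0.37), were higher. The kainate receptor gene Grik2 (-2.15 ± 0.63) and the metabotropic receptor gene Grm5 (-1.61 ± 0.56) were lower. Against Dlx-gated cells 10 of 18 were higher and 1 lower (7 and 1 by DESeq2), where 11.9% of all genes were higher and 9.76% lower. Against all other cells 10 of 25 were higher and 4 lower (7 and 3 by DESeq2), where these shares were 8.64% and 10.3%.

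Of 23 tested channel genes 5 were higher and 9 lower than in granule neurons, where 9.98% of all genes were higher and 13.4% lower. DESeq2 called 5 of the 23 higher and 4 lower. Cacna2d1, a second auxiliary calcium channel subunit gene beside the marker Cacna2d2, stood at 225, 726 and 577 CPM in members against 26.3, 34.2 and 25.4 CPM, higher in each library (4.23 ± 0.20, adjusted p = 1.35e-91). It was found in 84 of 92 members. Cacna2d3, of the same family, was higher as well (1.68 ± 0.42), as were the N-type calcium channel gene Cacna1b (1.59 ± 0.32) and Hcn2 (2.01 ± 0.52). The lower genes included Cacna1c, Cacna1e, Cacna1g, Cacna1h, Kcna1, Kcna2, Kcnc1 and Kcnq3, each with at most 12 UMIs in the members. Against Dlx-gated cells 8 of 23 were higher and 1 lower (7 and 0 by DESeq2), where 11.9% of all genes were higher and 9.76% lower. Against all other cells 8 of 24 were higher and 3 lower (4 and 1 by DESeq2), where these shares were 8.64% and 10.3%.

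Genes of the p53 family and of cell death were examined because many Cajal-Retzius cells die after birth. Whether those of the dentate gyrus were dying at this age was not tested. Of 19 tested genes 4 were higher and 5 lower than in granule neurons (4 and 4 by DESeq2), where 9.98% of all genes were higher and 13.4% lower. Diablo, which encodes the mitochondrial inhibitor-of-apoptosis antagonist SMAC, stood at 901, 915 and 883 CPM in members and at 81.0, 67.3 and 76.5 CPM in granule neurons (3.42 ± 0.20, adjusted p = 9.17e-64). It was found in 89 of 92 members (96.7%), against 23.1% of granule neurons and 15.9% of microglia (71.6%, 10.2% and 8.65% thinned to 1500 UMIs), and its CPM varied little between the 3 libraries. Xiap, which encodes an inhibitor of apoptosis that SMAC binds, was at 225, 110 and 92.0 CPM against 31.1, 42.7 and 38.5 CPM (1.24 ± 0.27). Cdkn1a, the p21 gene, was at 0, 77.0 and 166 CPM against 7.54, 12.2 and 9.72 CPM (3.07 ± 0.33), and the neurotrophin receptor gene Ntrk2 had a log2 fold of 1.95 ± 0.21.

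The lower genes of this list included Trp53 (0, 32.7 and 61.3 CPM against 151, 167 and 182 CPM, -2.20 ± 0.32), Bcl2l11 (-2.16 ± 0.49), Mcl1 (-0.75 ± 0.27) and Ntrk3 (-2.15 ± 0.38). Bcl2l11 encodes a death-promoting and Mcl1 a survival-promoting member of the BCL2 family, so these lower genes did not share 1 role. Bax, the effector of the mitochondrial pathway, stood at 113, 215 and 221 CPM against 276, 214 and 240 CPM (-0.24 ± 0.22, adjusted p = 0.477). Against Dlx-gated cells 4 of 19 were higher and 2 lower (2 and 2 by DESeq2), where 11.9% of all genes were higher and 9.76% lower. Against all other cells 3 of 20 were higher and 6 lower (1 and 1 by DESeq2), where these shares were 8.64% and 10.3%.

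Of 12 tested genes of telencephalic and hem patterning 5 were higher and 6 lower than in granule neurons (4 and 5 by DESeq2). Of all genes 9.98% were higher and 13.4% lower by edgeR. The Zic genes, which mark the hem, septum and meninges, were higher, with log2 folds of 1.60 ± 0.22 for Zic1, 2.05 ± 0.27 for Zic2, 2.85 ± 0.50 for Zic4 and 1.11 ± 0.29 for Zic5, and Emx2 was higher as well (225, 441 and 417 CPM against 145, 178 and 172 CPM, 1.12 ± 0.20). Against Dlx-gated cells Zic5 was lower (-0.92 ± 0.31). Emx1 (-3.69 ± 0.38), Lhx2 (-1.72 ± 0.25), Lhx9 (-2.54 ± 0.34), Pax6 (-0.96 ± 0.36) and Wnt5a (-2.42 ± 0.45) were lower. Emx1, whose promoter drives Cre in the Emx1-Cre mice, was thus at 0, 21.0 and 12.3 CPM in members and at 236, 252 and 144 CPM in granule neurons.

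Against all other cells 5 of 19 patterning genes were higher and 7 lower, and the largest fold was that of Rspo3, a secreted Wnt agonist of the hem (113, 72.4 and 73.6 CPM, log2 fold 4.91 ± 0.36). DESeq2 called 1 of the 19 higher and 6 lower, and of all genes 8.64% were higher and 10.3% lower by edgeR. The hem ligand genes Wnt2b, Wnt3a and Bmp4 had no UMI in any member.

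Genes of immature neurons were mostly lower and those of mature neurons mostly higher than in granule neurons. The granule neurons were chosen in part by Dcx, Igfbpl1 and Neurod1, which are also on the immature neuron list. That choice favours immature cells, so the direction against them was set in part in advance. Of 11 tested immature neuron genes 9 were lower and 2 higher than in granule neurons (9 and 1 by DESeq2). Of all genes 13.4% were lower and 9.98% higher. Against all other cells, which include the granule neurons, 7 of 14 were lower and 2 higher, where these shares were 10.3% and 8.64%. Sox11 stood at 225, 261 and 448 CPM in members against 3635, 4406 and 4297 CPM (-3.96 ± 0.31) and Sox4 had a log2 fold of -2.80 ± 0.28. The exceptions were the growth cone genes Gap43 (563, 1727 and 1619 CPM against 119, 127 and 141 CPM, 3.30 ± 0.22) and Stmn2 (0.98 ± 0.22). Of 14 tested mature neuron genes 9 were higher and 2 lower than in granule neurons (8 and 1 by DESeq2), and 9 higher and 1 lower against all other cells. The shares of all genes given for the immature neuron list apply here too. Syt1, the calcium sensor of transmitter release, stood at 451, 658 and 822 CPM against 16.7, 46.5 and 33.4 CPM (4.06 ± 0.20), and Thy1, Vsnl1, Syn1, Stmn3, Snap25, Uchl1 and Syp were higher by log2 folds of 0.80 to 3.52. Rbfox3, which encodes NeuN, was lower (at most 30.7 CPM in any library against 325, 397 and 378 CPM, -3.86 ± 0.34), and Nefm had 2 UMIs in members. Against Dlx-gated cells 9 of 14 mature neuron genes were higher and 2 lower, and 2 of 14 immature neuron genes were higher and 6 lower. Of all genes 11.9% were higher and 9.76% lower against Dlx-gated cells. The plot of log2 folds by list shows these groups side by side, against granule neurons.

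**Figure D4:**
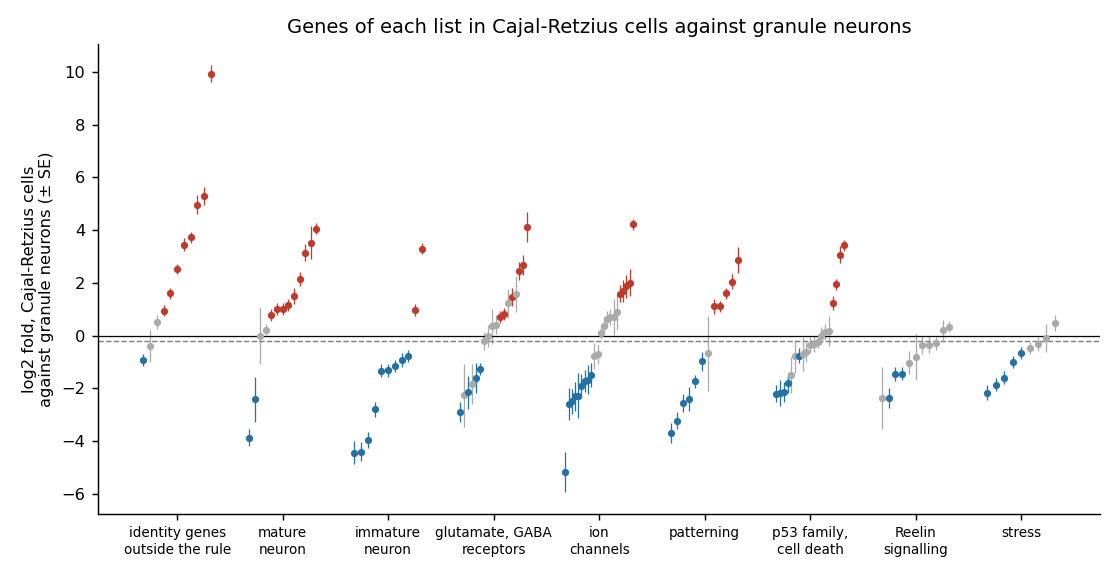
Log2 fold change of Cajal-Retzius cells against granule neurons (vertical axis) for each tested gene of the lists, with its standard error, in red where higher and blue where lower at an adjusted p under 0.05 and in grey otherwise, and a dashed line at the median of all genes. Genes used to choose either group and genes at 0 in members are not drawn. Mature neuron genes lay mostly above 0 (9 of 14 higher), immature neuron genes mostly below it (9 of 11 lower), and none of the Reelin signalling genes was higher. Of all genes 9.98% were higher and 13.4% lower. The granule neurons were chosen in part by genes of immature neurons, which bears on the immature neuron list.

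Of 7 genes of the 7SK and P-TEFb complexes none was higher and 1 was lower than in granule neurons, the cyclin gene Ccnt1 (0, 67.7 and 42.9 CPM against 91.0, 102 and 112 CPM, -0.90 ± 0.29, adjusted p = 0.0118). DESeq2 called none of the 7 against granule neurons, and 1 of 7 is close to the 13.4% of all genes that were lower. Against Dlx-gated cells and all other cells none of the 7 passed the test in edgeR or DESeq2, and 1 lower and 1 higher gene respectively had an unadjusted p under 0.05. Their levels in members were low. Hexim1, an inhibitor of P-TEFb, stood at 0, 39.7 and 67.5 CPM, and Cdk9, its kinase, at 113, 49.0 and 36.8 CPM, where the WT value was a single UMI.

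Larp7, the targeted gene, had 0 UMIs of 8879 in the WT members, which allows up to 338 CPM by the floor of 3 UMIs. It had 2 UMIs in nestin-Cre members (4.67 CPM, exact Poisson interval 0.565-16.9 CPM) and 2 in Emx1-Cre members (12.3 CPM, 1.49-44.3 CPM), and 6.76 CPM (1.84-17.3 CPM) in the mutant members together. The WT members could not show a difference at this depth, and no fold is given. In granule neurons Larp7 stood at 48.4 CPM (42.9-54.5 CPM) in WT, 9.32 CPM (7.53-11.4 CPM) in nestin-Cre and 12.4 CPM (10.2-14.9 CPM) in Emx1-Cre. In microglia, which neither driver is meant to reach, it stood at 58.2, 34.2 and 35.4 CPM. The intervals of the mutant members held the values of the mutant granule neurons and did not reach the WT granule value of 48.4 CPM. The Emx1-Cre member interval, from 2 UMIs, overlapped the WT granule interval, and the nestin-Cre member interval lay below it. Counts of 3′ ends need not come from the deleted part of the gene, so this is a check of the transcript's level and not of the deletion.

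Markers of other cell types were counted in the members. Of the 92, 52 held at least 2 genes of some other class (1 in WT, 33 in nestin-Cre and 18 in Emx1-Cre), and 18 held at least 4 (1, 10 and 7). The 10 astrocyte and radial glia genes summed to 21.4, 8.05 and 19.9 per 10000 UMIs in the members of WT, nestin-Cre and Emx1-Cre, and to 93.8, 69.1 and 81.1 in all other cells. Such sums were uneven among members. The 10 microglia genes summed to 0, 4.86 and 3.13, the 11 endothelial, mural and stromal genes to 0, 3.08 and 1.72 and the 8 oligodendrocyte lineage genes to 14.6, 0.957 and 3.37. The microglia counts were held by few members, as the median member was at 0 in each library, the highest reached 205 in nestin-Cre and 206 in Emx1-Cre, and 4 and 2 members held at least 2 of the genes. For the endothelial, mural and stromal genes the highest member reached 70.6 in nestin-Cre, against a median of 1.42. The 10 interneuron genes summed to at most 0.675, with Slc32a1, Lhx6 and Sst at 0, and the 6 cycling genes to at most 2.82. The 10 granule and pyramidal lineage genes summed to 1.13, 3.73 and 5.46, against 13.1, 23.7 and 20.7 in all other cells.

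These classes also appeared in the comparisons. Against granule neurons 5 of 10 microglia genes and 5 of 9 vascular genes were higher, and 8 of 10 astrocyte genes were lower, while DESeq2 called 0 of 10 and 1 of 9 higher and 4 of 10 lower. The microglia gene Pf4 and the vascular gene Cldn5 were lower by edgeR and had 0 UMIs in members. Of all genes 9.98% were higher and 13.4% lower by edgeR. Against Dlx-gated cells 6 of 10 microglia and 5 of 9 vascular genes were higher and 3 of 10 astrocyte genes lower (3, 1 and 2 by DESeq2), and against all other cells 6 of 10 microglia, 10 of 10 astrocyte and 6 of 6 cycling genes were lower (2, 9 and 5 by DESeq2). Pf4 was also lower against Dlx-gated cells, and 4 of 11 vascular genes were lower and 1 higher against all other cells. Of all genes 11.9% were higher and 9.76% lower against Dlx-gated cells, and 8.64% and 10.3% against all other cells. Of 7 tested oligodendrocyte lineage genes 2 were higher than in granule neurons and 1, Mbp, was lower (1 and 0 by DESeq2). Against all other cells Cspg4 was higher, and Sox10, Olig1 and Mbp were lower (1 and 1 by DESeq2). Cspg4, a proteoglycan gene of oligodendrocyte precursors, was higher against granule neurons at 338, 79.4 and 104 CPM against 5.09, 4.81 and 5.30 CPM (4.14 ± 0.40). Pdgfra was higher too, and its call was lost without the WT library (edgeR's adjusted p = 0.279), where 5 UMIs came from 1 cell. Against granule neurons 6 of 6 tested genes of the granule and pyramidal lineage were lower. The granule neurons were chosen by other genes of that lineage, so this direction was set in part in advance. None of 3 tested interneuron genes other than Dlx1 passed the test against granule neurons, and Dlx1 was higher through 5 UMIs, all from Emx1-Cre members. Leaving out the 18 members with 4 genes of another class left 1141 genes higher and 1440 lower against granule neurons. Of 2796 calls that could still be tested 2269 held, and 25 turned their direction, 5 of them past the threshold. The log2 fold of Ndnf was then 10.12 and that of Meg3 8.29.

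Of 11 immediate early and stress genes, which dissociation can raise, none was higher and 5 were lower than in granule neurons by edgeR, and at an unadjusted p under 0.05 (20.2% of all genes lower) none was higher and 8 were lower. DESeq2 called 4 lower. Egr1 had a log2 fold of -2.15 ± 0.27, Ier2 of -1.85 ± 0.26, Jun of -1.58 ± 0.26, Fos of -1.01 ± 0.23 and Jund of -0.67 ± 0.22. Against all other cells 10 of 11 were lower, and against Dlx-gated cells Fosb was higher and 3 were lower.

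With the WT library left out, fewer genes of each list could be tested against granule neurons. Of all 6837 genes tested then, 19.9% were higher and 17.7% lower. Of 10 identity genes 9 were then higher and 1 lower, of 8 Reelin genes 1 (Pafah1b1) and 2, of 9 migration genes 3 and 2, of 12 receptor subunit genes 6 and 2, and of 11 channel genes 6 and 1. Of 15 death genes 4 were higher and 5 lower, of 9 patterning genes 5 and 3, of 9 immature neuron genes 2 and 7, of 11 mature neuron genes 10 and 1, of 5 7SK and P-TEFb genes 0 and 1 and of 9 stress genes 0 and 5. Of 2 transporter genes Slc17a6 was higher and none was lower, and Slc12a2 could not be tested.

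The mutant libraries were compared with each other without a test, since each is 1 library. Of 1046 genes with at least 100 UMIs in the members of both together, 27 (2.58%) were at least 1.5-fold higher and 43 (4.11%) at least 1.5-fold lower in Emx1-Cre than in nestin-Cre members. The number of genes past 1.5-fold was small beside those that were not. When the sums were scaled by TMM factors the counts were 16 and 82.

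Reln stood at 3398 CPM in Emx1-Cre and 4507 CPM in nestin-Cre members, a ratio of 0.754 (95% counting interval 0.685-0.829), and Ndnf had a ratio of 0.772 (0.685-0.869). Both were lower in Emx1-Cre by less than 1.5-fold. In granule neurons, where counts of these genes were a few CPM, the ratios were 0.497 for Reln and 0.709 for Ndnf. The 5 rule markers with enough UMIs lay between 0.754 and 1.05, and none was past 1.5-fold. Of 9 identity genes outside the rule 3 were past it, all lower in Emx1-Cre, namely Calb2 (0.635, 0.510-0.785), Nr2f2 (0.655, 0.499-0.849) and Car10 (0.408, 0.225-0.695). The granule neurons of the same libraries had a Calb2 ratio of 1.05, a Nr2f2 ratio of 0.785 and a Car10 ratio of 0.542, the last also past 1.5-fold.

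The largest ratios were those of Fabp7 (1024 against 338 CPM, 3.03, 2.41-3.81), a fatty acid-binding protein gene of radial glia, and of genes of chromatin and the cell cycle, Hmgn2 (2.46), H2afv (2.21), Cenpf (2.17) and Cdk2ap1 (2.16). The members of Emx1-Cre also held more counts of astrocyte and radial glia genes and of cycling genes (19.9 and 2.82 per 10000 UMIs) than those of nestin-Cre (8.05 and 0.677), and the part of these in the ratios was not tested. Leaving out members with 4 genes of another class left 13 of 750 genes higher, and leaving out those with 2 genes left 16 of 292. The lowest ratios were those of Ptgds (1 against 124 UMIs, 0.0212, 0.000532-0.120), Car10, Nrep (0.438), Penk (0.441) and B3galt1 (0.473). All other cells of these libraries had ratios of 0.494, 0.533, 0.883, 0.574 and 0.829 for these genes, in the same order. The part of other cell types in the lowest ratios was not tested. In members, of 10 immature neuron genes Sox11 (1.71, 1.26-2.32) and Igfbpl1 (1.70, 1.12-2.54) were past 1.5-fold, and so was the patterning gene Lhx2 (1.89, 1.28-2.77). None of 6 mature neuron genes was, with ratios of 0.804 to 1.26. Slc17a6 had a ratio of 1.10 (0.801-1.49) and Diablo one of 0.965 (0.792-1.17).

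**Figure D5:**
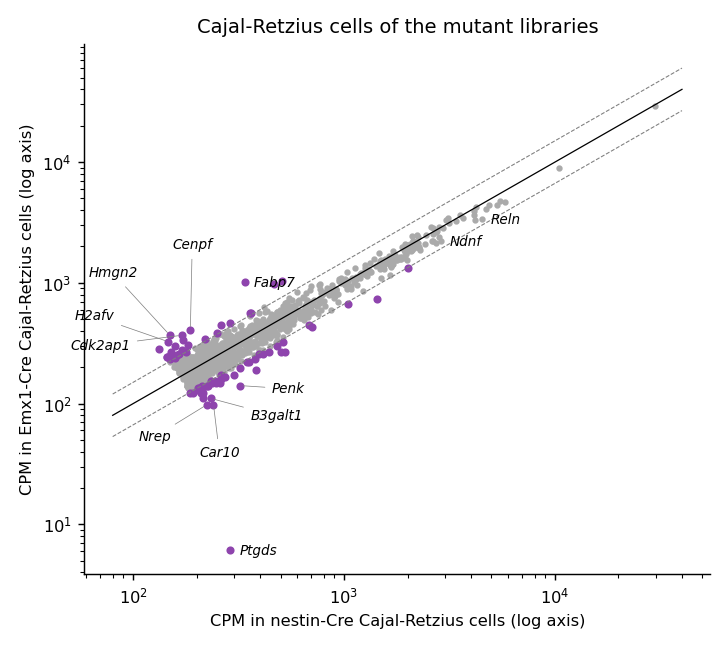
CPM in Emx1-Cre against nestin-Cre Cajal-Retzius cells for 1046 genes with at least 100 UMIs, both axes on a log scale, with a solid line at equal values, dashed lines at 1.5-fold and genes past them in purple. Most genes lay between the dashed lines, 27 lay above and 43 below them, and Ptgds and Fabp7 were the farthest from equality.

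The comparisons with WT rested on 3 cells. Of 717 genes with at least 100 UMIs in nestin-Cre and WT members together, 250 (34.9%) were at least 1.5-fold higher and 96 (13.4%) lower in nestin-Cre, but the median gene had 4 UMIs in WT, and 205 of those past 1.5-fold had 3 or fewer. Of 230 genes in Emx1-Cre and WT members, 63 (27.4%) were higher and 31 (13.5%) lower in Emx1-Cre. Scaled by TMM factors, the counts were 599 and 3 for nestin-Cre and 177 and 2 for Emx1-Cre, so the split between higher and lower followed the scaling. The 5 highest genes in nestin-Cre, Gng3, Slc25a3, Gpx4, Calr and Atxn10, had no UMI in WT, and the lowest were Fabp7 (0.200, 0.118-0.367), Pnn, Mrpl52, PISD and Tnrc6c. In Emx1-Cre the highest were Gng3, Eif4g2, Gpm6a, Apoe and Cst3, and the lowest PISD (0.281, 0.169-0.495), Gm42418, Xist, Hmgb1 and Kcnq1ot1. The 15 Fabp7 UMIs of the WT members came from the cell that also held Pdgfra, Cspg4 and Olig1. At this depth no difference between WT and mutant Cajal-Retzius cells could be described for single genes.

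Variation among members was described in the 85 with at least 3000 UMIs (2 in WT, 63 in nestin-Cre and 20 in Emx1-Cre), each thinned to 3000. The Fano factor, the variance of the counts over their mean, is 1 for counting noise alone, and its median over 1063 genes was 1.07. It was over 3 for 18 genes. Apoe (21.9), Fabp7 (11.6), Ptn (5.35), Dbi (4.60) and Ctsd (3.95), genes of glia and microglia, were among these, and in the 68 members without 4 genes of another class their values were 1.13, 0.919, 1.38, 1.04 and 0.985. Fabp7 is on a list by which the removed members were chosen, so its fall was set in part in advance. Ptprz1 went the other way, from 4.72 to 5.62 in the 68 cells, but was 1 in the 53 nestin-Cre cells among them. Other genes stayed over 3 in those 68 cells, among them Gm42418 (13.2), Malat1 (11.8), Meg3 (5.39), Snhg11 (3.33), Sox11 (6.57), Fos (4.07) and Calb2 (3.10). These values pool cells of 3 libraries. In the 53 nestin-Cre cells among the 68 these 7 genes stayed over 3, from 3.16 for Calb2 to 14.9 for Gm42418. Among all 85, Ndnf had a Fano factor of 2.04. The rule genes Reln, Lhx1 and Trp73 had 1.60, 1.72 and 0.837, and the rule, which asks for counts of such genes, limits their spread.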

How the data were processed

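Dentate gyri were dissociated and run on a droplet platform with 3′ chemistry, and the authors deposited a matrix of whole UMI counts per gene and barcode for each library, made with Cell Ranger (4.0.0 in the matrix header, while the study's methods give another version and do not name the build of the single-cell reads and the labels list mm10). The counts were used as deposited. Of 12876, 7177 and 6821 barcodes in WT, nestin-Cre and Emx1-Cre, 10997, 6685 and 6531 held over 500 genes and under 15% mitochondrial UMIs. No doublet caller was run. Members with 2 or 4 genes of another class were left out as alternatives. Cell numbers that the study gives for each Cre line lie just under the barcode number of the library titled for that line.

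The members, gene lists and comparisons were chosen with earlier results of these data known. The genes named are those of the lists, the 15 highest against all other cells, the 5 highest and 5 lowest against each neuron class (at least 50 CPM, adjusted p under 0.05), and the 5 highest and lowest CPM ratios between libraries (at least 100 UMIs). Counts were summed per library and class and fitted with edgeR 4.0.16 (quasi-likelihood, TMM, library as block, genes with at least 10 UMIs in at least 3 sums, Benjamini-Hochberg adjustment over all genes). The standard error is the log2 fold divided by the square root of F. The fit of neuron classes had 9 sums, 4 residual degrees of freedom and a biological coefficient of variation of 11.7%. The fit against all other cells had 6 sums, 2 residual degrees of freedom and 16.2%. The TMM factor of the WT members was 1.87. Sums of libraries of different genotypes served as replicates, with the library as a block. The p-values thus measure the difference between classes against its variation over 3 libraries. edgeR shares its estimate of that variation among all genes, so a very small p-value does not rest on the 3 libraries alone. In data simulated for the comparison with granule neurons (12169 genes), 54% of 100 genes changed 2-fold were recovered. Of 100 genes changed 4-fold 97% were recovered, with 2 false calls among 153. That simulation changed 200 genes, whereas 2805 were called against granule neurons in the data. Its recovery and false calls thus describe the simulated data only, and those of the real calls were not measured.

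Between genotypes there is 1 library each and no test was made. CPM carry exact Poisson intervals, shares exact Clopper-Pearson intervals and CPM ratios conditional exact binomial intervals, all at 95% and for counting error only. The planned interneuron gate of Gad1 and Gad2 found 0, 3 and 1 cells, so the Dlx gate, added after seeing the data, replaced it. The 4-gene removal, the unthinned count at 1500 UMIs, the direct comparison of the mutants and the variation within nestin-Cre were also added. DESeq2 1.42.0, R 4.3.3, Python 3.11.15, numpy 2.4.6, scipy 1.17.1 and pandas 2.3.3 were used. Older ages, bulk and other deposited tables of the series were not used here. A few genes of the lists entered the fits and counts but are not reported here.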

Additional observations from a re-analysis of the deposited data

How the results depend on the processing

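The 35 folds of named genes were recomputed 309 times, of which 306 kept their direction and side of the threshold, none reversed, and 3 fell short of it: St18 under the Gad1 and Gad2 gate (adjusted p = 0.0996) and Lmo3 thinned (0.140) or under that gate (0.108). WT members numbered 1 with at least 4 markers and 1 when thinned to 1500 UMIs. nestin-Cre members numbered 34 without those with 2 genes of another class and 32 thinned, and Emx1-Cre members 4 and 7. Higher and lower genes against granule neurons were 687 and 645 by DESeq2, 587 and 884 after the 2-gene removal and 281 and 406 thinned. Leaving out 1 library gave 387 to 1362 higher and 287 to 1209 lower. Against Dlx-gated cells 787 were higher by DESeq2, 775 after the 2-gene removal, 295 (239 lower) thinned and 121 (39 lower) by the Gad gate, and without 1 library 589 to 1298 higher and 390 to 1304 lower. Against all other cells the counts were 520 and 542 by DESeq2, 564 higher after the 2-gene removal and 318 and 296 thinned, and without 1 library 410 to 1197 higher and 212 to 1093 lower. Of the calls against granule neurons, Dlx-gated cells and all other cells that could be retested, 40, 22 and 27 turned direction after the 2-gene removal, 25, 15 and 1 after the 4-gene removal and 47, 25 and 52 thinned, 539 against interneurons by the Gad gate, and at most 5 without 1 library or with at least 4 markers. Of these, 3 after the 2-gene and 5 after the 4-gene removal against granule neurons, and 2 after the 4-gene removal against Dlx-gated cells, were past the threshold in the new direction. Thinned sums and removals hold fewer molecules, and for the other changes the cause was not tested. Larp7 fell to 0 CPM in both mutants after the 2-gene removal and to 0 in nestin-Cre thinned. For nestin-Cre against WT, 145 of 685 genes were lower with at least 4 markers, and 68 of 261 were higher and 39 lower after the 2-gene removal. The counts were 49 and 21 of 146 thinned, 599 and 3 of 717 with TMM factors and 614 and 361 of 1646 at 50 UMIs. For Emx1-Cre against WT, 51 of 216 were lower with at least 4 markers, and 2 of 12 were higher and 1 lower after the 2-gene removal. After the 4-gene removal 25 of 146 were higher. The counts were 6 and 3 of 23 thinned, 177 and 2 of 230 with TMM factors and 165 and 74 of 537 at 50 UMIs. For Emx1-Cre against nestin-Cre, 16 of 292 were higher after the 2-gene and 13 of 750 after the 4-gene removal. The counts were 1 higher and 12 lower of 172 thinned, 16 and 82 of 1046 with TMM factors and 128 and 172 of 2256 at 50 UMIs. No paired analysis was possible because each genotype has 1 single-cell library. Depth limits WT most, where 3 UMIs are 338 CPM.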
